A study of Mus musculus with 10 samples.

Results

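Transcripts of skeletal muscle were measured in whole liver RNA of germ-free (GF) mice. The set was defined as 10 genes of fast skeletal muscle fibres (*Myh4*, *Acta1*, *Ckm*, *Mylpf*, *Tnnt3*, *Tnni2*, *Tnnc2*, *Atp2a1*, *Myl1* and *Pgam2*), selected on the level of *Myh4* in CPM, which varied widely between livers. Of these, 6 were among the 12148 genes of the count table (*Myh4*, *Acta1*, *Mylpf*, *Tnni2*, *Pgam2* and *Ckm*), and all 6 were among the 12147 genes that had at least 20 counts summed over the livers and were tested. *Tnnt3*, *Tnnc2*, *Atp2a1* and *Myl1* were not analysed here. The *Myh4* levels and the co-variation of the other genes with them are therefore given as a description, without a test.

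Fast skeletal muscle fibres contract through sarcomeres, in which myosin motors of thick filaments pull on actin thin filaments. Calcium released from the sarcoplasmic reticulum binds troponin on the thin filament and so permits contraction, while creatine kinase and glycolysis supply ATP. Hepatocytes use non-muscle myosins and the cytoplasmic actins in place of these isoforms, and the heart has its own myosin, actin and troponin genes, although heart and skeletal muscle share muscle creatine kinase.

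Livers of 5 wild-type C57BL/6 GF mice given 80 μg of microbiota-derived extracellular vesicles (MEV) in PBS by mouth (GF+MEV) were compared with livers of 5 wild-type C57BL/6 GF mice given PBS alone (GF+PBS), with 2 administrations per week for 3 weeks. MEV are membrane vesicles shed by gut bacteria, here purified from the gut contents of mice with a normal microbiota, and the comparison asked how they change the liver transcriptome. Each library came from 1 mouse, and age and sex of the GF mice are not given in the sources used here. The authors deposited raw counts per gene, 15746119 to 20523649 per library, which are given below as CPM, the share of a library's counts in units of its scaled size (edgeR's TMM factors correct for size and composition).

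The labelled tissue was present in every library: *Alb*, the serum albumin of hepatocytes, was between 64586 and 83247 CPM, and all 10 hepatocyte genes examined were detected. Within GF+PBS, the root mean square difference in log2 CPM was 0.53 between livers 1 and 3 and 0.50 between livers 4 and 5, taken across the 300 most variable genes of the GF+MEV livers. The 8 other GF+PBS pairs differed by 0.68 to 0.85, a comparison that was made after the data were seen. GF+PBS 1 and 3, close on those genes, differed 3.59-fold in *Myh4*.

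*Myh4* (ENSMUSG00000057003) encodes the fast type IIb myosin heavy chain and lies on the plus strand of chromosome 11 of GRCm38, from 67238029 to 67260446. *Acta1* (ENSMUSG00000031972), the skeletal muscle actin of the thin filament, lies on the minus strand of chromosome 8, from 123891769 to 123894751. *Mylpf* (ENSMUSG00000030672), the fast regulatory light chain of myosin, lies on the plus strand of chromosome 7 from 127208890 to 127214298. *Tnni2* (ENSMUSG00000031097), the fast inhibitory troponin, lies on the plus strand of chromosome 7 from 142441808 to 142444410. *Pgam2* (ENSMUSG00000020475), the muscle phosphoglycerate mutase of glycolysis, lies on the minus strand of chromosome 11 from 5801640 to 5803733. *Ckm* (ENSMUSG00000030399), the muscle creatine kinase that recharges ATP from creatine phosphate, lies on the plus strand of chromosome 7 from 19404776 to 19422841.

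The 250 bases before the start of transcription are shown for 4 of these genes, because *Myh4*, *Acta1* and *Pgam2* ran together across livers and *Ckm* departed from them, as described below. The sequences and starts are those of RefSeq (GRCm38.p6), which differ from the gene ends of the annotation above, and 8 of the 10 genes had an entry. Capitals mark matches, on either strand, to TATAAA (the core of a TATA box), CAGCTG (an E-box of the kind bound by myogenic factors), CATTCC (an MCAT element), the CArG box of serum response factor and the MEF2 site, and positions are counted backwards from the base before the start.
Myh4 (chr11:67237562-67237811, plus strand): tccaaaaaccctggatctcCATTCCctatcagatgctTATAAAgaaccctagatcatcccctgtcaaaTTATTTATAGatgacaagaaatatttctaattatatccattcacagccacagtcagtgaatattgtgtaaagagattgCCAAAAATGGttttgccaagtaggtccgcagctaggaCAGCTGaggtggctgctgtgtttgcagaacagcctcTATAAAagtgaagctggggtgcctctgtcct
Acta1 (chr8:123894776-123895025, minus strand): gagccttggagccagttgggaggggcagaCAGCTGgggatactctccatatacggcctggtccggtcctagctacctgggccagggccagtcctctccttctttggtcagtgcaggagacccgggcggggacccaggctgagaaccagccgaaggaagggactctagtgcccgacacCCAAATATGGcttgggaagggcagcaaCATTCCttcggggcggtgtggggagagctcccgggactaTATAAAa
Pgam2 (chr11:5803797-5804046, minus strand): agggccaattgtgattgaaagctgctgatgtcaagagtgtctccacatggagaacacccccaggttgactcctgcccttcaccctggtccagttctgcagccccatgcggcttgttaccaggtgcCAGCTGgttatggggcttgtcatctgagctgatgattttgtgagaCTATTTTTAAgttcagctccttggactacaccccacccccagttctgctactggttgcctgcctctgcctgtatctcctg
Ckm (chr7:19410844-19411093, plus strand): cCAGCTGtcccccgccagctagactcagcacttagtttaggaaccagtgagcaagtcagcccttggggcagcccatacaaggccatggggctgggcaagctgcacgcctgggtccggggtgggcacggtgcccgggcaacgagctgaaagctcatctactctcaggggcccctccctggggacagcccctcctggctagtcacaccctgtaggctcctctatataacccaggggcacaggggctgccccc

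*Myh4* held a match to each of the 5 motifs, among them TATAAA at bases 31 to 26, CAGCTG at bases 67 to 62, the CArG box at bases 104 to 95 and the MEF2 site at bases 182 to 173. That MEF2 match overlapped another TATAAA match, at bases 179 to 174 on the opposite strand. *Acta1* held TATAAA at bases 7 to 2, CATTCC at bases 46 to 41 and the CArG box at bases 73 to 64. It also held CAGCTG, at bases 221 to 216. *Pgam2* held CAGCTG at bases 125 to 120 and the MEF2 site at bases 80 to 71. In *Ckm* the only match was CAGCTG, at bases 249 to 244. *Mylpf*, whose sequence is not shown, likewise held only CAGCTG, at bases 51 to 46, although it was high in the same livers as *Myh4*. CAGCTG was found in 7 of the 8 genes with an entry, against 13.0% of 32851 promoters, TATAAA in 3 of 8 against 12.4%, CATTCC in 3 of 8 against 12.6%, the CArG box in 2 of 8 against 1.47%, and the MEF2 site in 2 of 8 against 2.92%. A match describes these letters only, and binding was not measured.

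*Myh4* was high in 3 GF+PBS livers and lower in the other 7 livers. Its level was 117, 117, 102, 124 and 102 CPM in GF+MEV livers 1 to 5, and 87.5, 112, 315, 224 and 303 CPM in GF+PBS livers 1 to 5. The groups overlapped, since GF+PBS 1 and 2 lay with the GF+MEV livers and GF+PBS 3, 4 and 5 lay at least 1.80-fold above all 7. The mean was 113 ± 9.86 CPM (SD, n = 5) in GF+MEV and 208 ± 105 CPM (SD, n = 5) in GF+PBS. In bulk tissue, fewer cells of a type and less RNA per cell cannot be told apart. The coefficient of variation over the 10 livers was 54.1%, against 1.89% from counting error at the mean count, and 2.07% of tested genes varied more on the log2 scale.

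*Acta1* had the same high livers. It was at 111, 101, 92.3, 85.6 and 68.9 CPM in GF+MEV livers 1 to 5, and at 60.7, 73.8, 209, 149 and 194 CPM in GF+PBS livers 1 to 5. GF+PBS 3 was the highest and GF+PBS 1 the lowest of all 10, as for *Myh4*, a 3.44-fold range. Within GF+MEV the levels spanned 1.60-fold, against 1.22-fold for *Myh4*.

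*Mylpf* was at 50.8, 42.8, 38.6, 34.4 and 33.2 CPM in the GF+MEV livers and at 26.6, 22.8, 102, 79.0 and 107 CPM in the GF+PBS livers. GF+PBS 5 was the highest here and GF+PBS 2 the lowest, 4.70-fold apart. *Tnni2* was at 32.0, 37.8, 27.8, 28.4 and 24.7 CPM in the GF+MEV livers and at 18.5, 26.0, 101, 72.0 and 102 CPM in the GF+PBS livers. This troponin had the widest range of the 6 genes, 5.51-fold between GF+PBS 5 and GF+PBS 1, and 0.881% of tested genes varied more.

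*Pgam2* had the fewest reads of the 6, 116 to 371 per library. It was at 7.08, 9.73, 7.82, 8.37 and 8.42 CPM in the GF+MEV livers and at 6.77, 8.18, 22.1, 15.3 and 20.1 CPM in the GF+PBS livers. The same 3 livers were high, with a coefficient of variation of 49.7% against 7.12% from counting error.

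*Ckm* had another order of livers. It was at 31.6, 41.7, 24.6, 20.5 and 19.6 CPM in the GF+MEV livers, and at 15.7, 19.7, 38.2, 26.7 and 37.8 CPM in the GF+PBS livers. Its highest liver was GF+MEV 2, followed by GF+PBS 3 and 5, and GF+MEV 1 lay above GF+PBS 4. The range was 2.67-fold, the narrowest of the 6.

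**Figure D1:**
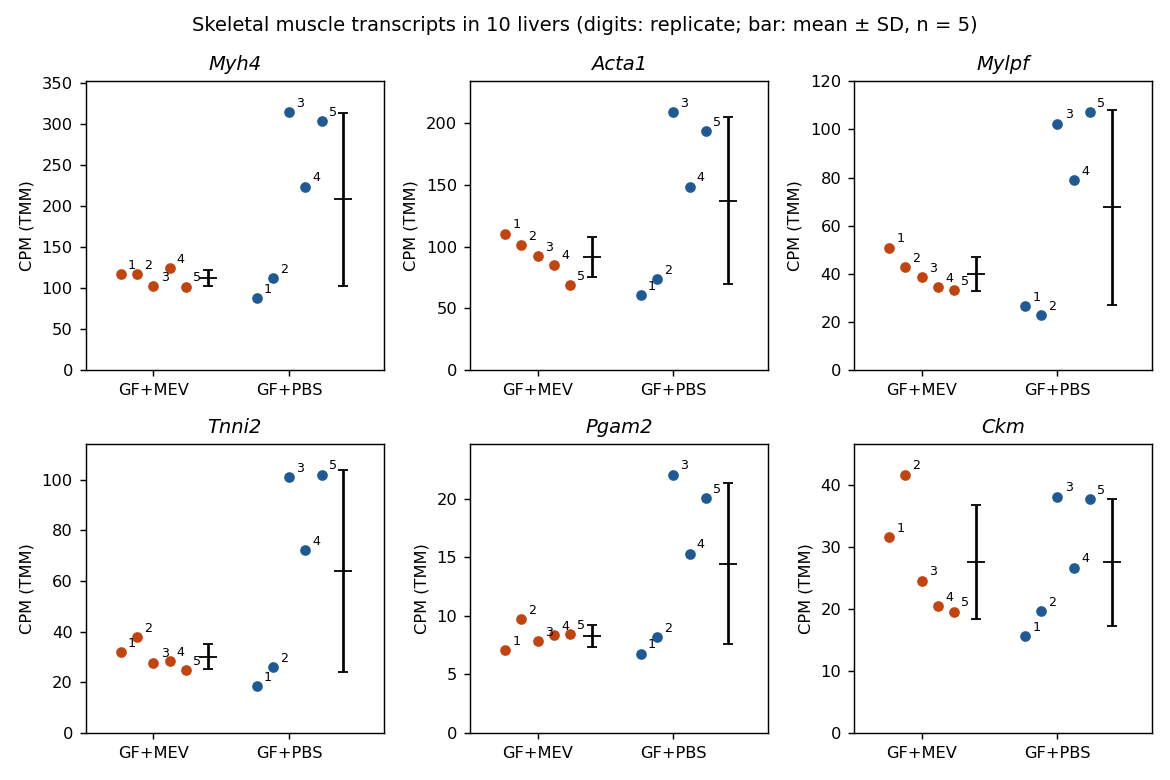
Level of each gene in each liver, in CPM after TMM scaling on a linear axis from 0, with replicate numbers beside the points and the mean ± SD of the 5 livers of a group as a bar. For *Myh4*, *Acta1*, *Mylpf*, *Tnni2* and *Pgam2*, GF+PBS 3, 4 and 5 sit above all other livers, while for *Ckm* the highest point is GF+MEV 2, at 41.7 CPM.

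Summed over the 6 genes, the level was 349, 351, 294, 301 and 257 CPM in GF+MEV livers 1 to 5, and 216, 263, 787, 565 and 764 CPM in GF+PBS livers 1 to 5. These sums rest on 3886 to 13227 reads per library. The group mean of the sum was 310.2 ± 39.9 CPM (SD, n = 5) in GF+MEV and 519 ± 270.0 CPM (SD, n = 5) in GF+PBS. The spread within GF+PBS exceeded the difference of the means.

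Per kilobase of exon, *Acta1* was the most abundant, with a mean of 74.5 ± 34.0 CPM per kilobase (SD over 10 livers). *Mylpf* followed with 50.6 ± 29.3, *Tnni2* with 31.4 ± 21.5, *Myh4* with 26.7 ± 14.4, *Pgam2* with 13.5 ± 6.74 and *Ckm* with 9.48 ± 3.16 CPM per kilobase. Each neighbouring pair in this order differed by less than the larger of its SDs. These SDs include variation between livers that the genes share, so they do not measure how well the order held within a liver. *Alb* stood at a mean of 32948 CPM per kilobase in the same libraries.

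Some reads of *Myh4* and *Ckm*, and short reads of *Acta1*, cannot be assigned with certainty. Of the windows of 100 bases along the longest coding *Myh4* transcript, 3.85% also occurred in another gene, chiefly the neighbouring myosins *Myh1*, *Myh8* and *Myh2*. For *Ckm* the share was 6.24%, all with *A930016O22Rik*, a gene on the opposite strand whose exons overlap those of *Ckm* over 451 bases, and the strand setting of the counting is not given in the sources used here. *Acta1*, *Mylpf*, *Tnni2* and *Pgam2* shared no window of this length with another gene. With windows of 50 bases the share was 18.9% for *Myh4*, 11.7% for *Ckm* and 2.22% for *Acta1*, the last in part with *Actb*, and the read length is not given in the sources used here.

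None of the 5 genes other than *Myh4* passed the test between the groups (edgeR quasi-likelihood test, Benjamini-Hochberg adjusted over all genes, threshold 0.05), and 2 of the 5 had an unadjusted p under 0.05, against 21.2% of all tested genes. DESeq2 called 0 of them as well. Over all genes, 928 of 12147, or 7.64%, were called, 500 higher in GF+MEV (4.12%) and 428 lower (3.52%). The groups overlapped for all 6 genes. Over all tested genes 898, or 7.39%, had no overlap, so overlap was the common case and says little about these 6.

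For *Tnni2* the log2 fold change, GF+MEV minus GF+PBS, was -1.08 (standard error 0.52, edgeR adjusted p = 0.0991). Standard errors here and below are those of the difference in mean log2 CPM between the groups, not of the edgeR fold change. For *Pgam2* it was -0.81 (standard error 0.35, edgeR adjusted p = 0.0900). Leaving out either of the 2 GF+PBS livers with low levels widened the difference and brought both genes past the threshold, as lower in GF+MEV. Without GF+PBS 1 the edgeR adjusted p was 0.0121 for *Tnni2* and 0.0141 for *Pgam2*, and without GF+PBS 2 it was 0.0341 and 0.0326. With any other liver left out, neither gene passed. The edgeR adjusted p was then from 0.117 (without GF+MEV 2) to 0.228 (without GF+PBS 3) for *Tnni2*. For *Pgam2* it was from 0.108 to 0.215, with the same livers at the ends. With GF+PBS 1 and 3 summed, and 4 and 5 summed, the edgeR adjusted p was 0.0805 for *Tnni2* and 0.0650 for *Pgam2*, an alternative added after the data were seen.

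The difference on the log2 scale was -0.76 for *Mylpf* (standard error 0.50, edgeR adjusted p = 0.239) and -0.58 for *Acta1* (standard error 0.38, edgeR adjusted p = 0.254). *Ckm* was at 27.6 ± 9.22 CPM in GF+MEV and 27.6 ± 10.3 CPM in GF+PBS (SD, n = 5 each). Its log2 difference was -0.0025 (standard error 0.32, edgeR adjusted p = 0.998), with a sign that changed with the processing. The log2 difference of *Myh4*, on which the genes were chosen, was -0.89 (standard error 0.38). The median of the 5 other genes was -0.76, beside -0.0037 over all tested genes.

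**Figure D2:**
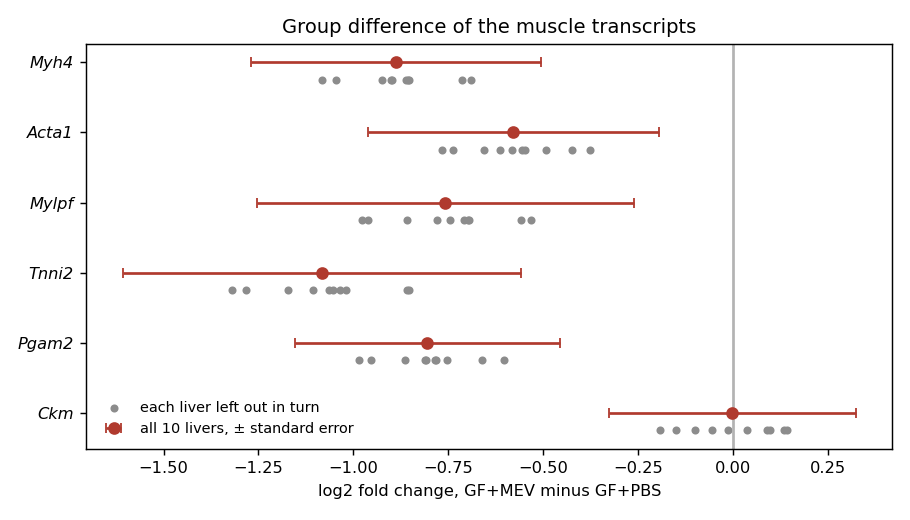
Log2 fold change between the groups, GF+MEV minus GF+PBS, for each gene, from the edgeR fit. The bar is the standard error of the difference in mean log2 CPM, not of the edgeR fold change. Grey points are the 10 values obtained by leaving out each liver in turn. *Tnni2* lies farthest from 0, at -1.08, its values with a liver left out range from -1.32 to -0.85, and those of *Ckm* fall on both sides of 0, from -0.19 to 0.14.

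Across the 10 livers, 4 genes followed *Myh4* closely. Pearson's r of log2 CPM with *Myh4* was 0.98 for *Tnni2*, 0.98 for *Pgam2*, 0.95 for *Acta1* and 0.93 for *Mylpf*, and 0.65 for *Ckm*, with Spearman's rho of 0.94, 0.82, 0.89, 0.82 and 0.76 (n = 10 livers). For comparison, the median r over all tested genes was 0.016, and 0.338% of them had an r above 0.8. All values of a liver share 1 library with its depth and scaling factor.

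These correlations rest in part on the gap between GF+PBS 3, 4 and 5 and the other livers. Without GF+PBS 3 and 5, the livers farthest from the *Myh4* median, r was 0.95 for *Tnni2*, 0.92 for *Pgam2*, 0.85 for *Acta1*, 0.80 for *Mylpf* and 0.36 for *Ckm*. Among the 7 livers below the gap alone, r was 0.82 for *Tnni2*, 0.71 for *Acta1*, 0.58 for *Ckm*, 0.55 for *Pgam2* and 0.42 for *Mylpf*. *Myh4* spanned only 87.5 to 124 CPM in those 7.

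Ratios of CPM to *Myh4* within a liver, not scaled for gene length, varied more for *Ckm* than for the other genes. *Pgam2* was between 0.0605 and 0.0830 of the *Myh4* level, a 1.37-fold range, although its own level ranged 3.26-fold. The ratio of *Acta1* to *Myh4* ranged 1.48-fold (0.638 to 0.946), that of *Tnni2* 1.59-fold (0.211 to 0.336) and that of *Mylpf* 2.14-fold (0.203 to 0.435). The ratio of *Ckm* to *Myh4* ranged 2.98-fold, more than the level of *Ckm* itself, from 0.120 in GF+PBS 4 to 0.356 in GF+MEV 2. It was 0.121 in GF+PBS 3 and 0.124 in GF+PBS 5, below the 0.165 to 0.356 of the other 7 livers.

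Of genes outside the set, those whose log2 CPM was most like *Myh4* over the 10 livers included *Tcap* (r = 0.95), *Tpm1* (0.95), *Eno3* (0.93), *Tpm2* (0.90), *Pygm* (0.88), *Rufy1* (0.87), *Pkm* (0.87) and *Aldoa* (0.87). *Tcap* encodes telethonin of the Z-disc, *Tpm1* and *Tpm2* tropomyosins of the thin filament, *Eno3* muscle enolase, *Pygm* muscle glycogen phosphorylase, and *Pkm* and *Aldoa* glycolytic enzymes of many tissues. *Tcap* was between 6.59 and 10.4 CPM in the GF+MEV livers and at 6.94, 7.79, 21.3, 15.8 and 19.1 CPM in GF+PBS livers 1 to 5. *Rufy1* was alike in order but not in size, with a range from 21.4 to 26.9 CPM.

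**Figure D3:**
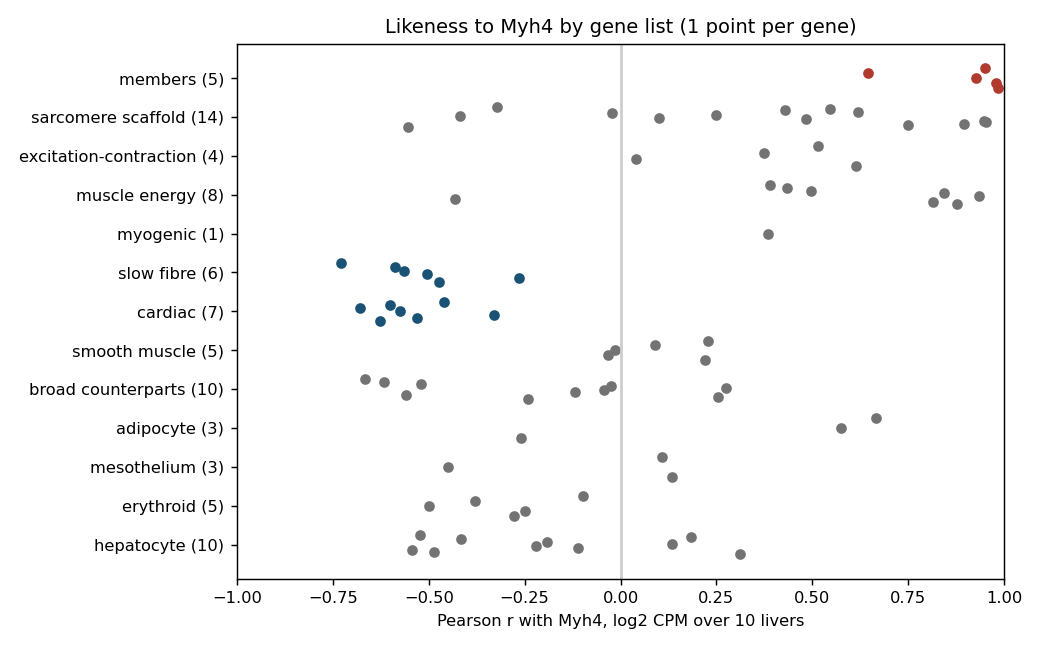
Pearson's r with *Myh4* of log2 CPM over 10 livers, with 1 point per gene and the number of genes of each list in brackets. The 5 other members lie between 0.65 and 0.98, all slow fibre and heart genes lie below 0, and the sarcomere scaffold and muscle energy lists spread over both sides.

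Other muscle genes were examined in 7 lists with 85 genes, of which 40 were tested. In the edgeR fit 1 of the 40 was called higher in GF+MEV and 0 lower, beside 4.12% and 3.52% of all tested genes. Without GF+PBS 1 the count was 3 higher and 3 lower (*Tcap*, *Eno3* and *Cox8b*), and without GF+PBS 2 it was 2 higher and 1 lower (*Tpm2*). No gene of the fast fibre list was analysed here (0 of 11). The sarcomere scaffold list had 14 of 19 genes tested and a median log2 fold change of 0.031. Its called gene was *Xirp1*, an actin-binding repeat protein of muscle, at 1.55 to 4.63 CPM, higher by 0.79 on the log2 scale (standard error 0.19, edgeR adjusted p = 0.0186). Without GF+MEV 3 its edgeR adjusted p was 0.0546. *Neb*, the nebulin of the thin filament, was between 18.7 and 39.0 CPM, *Ttn*, the giant titin, between 17.9 and 30.3 CPM, and *Tpm2* between 17.7 and 51.9 CPM. *Tpm2* had an r of 0.90 with *Myh4*, *Ttn* of 0.75 and *Neb* of 0.10, and 3 of the 14 were above 0.8.

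The muscle energy list had 8 of 11 genes tested and none called by edgeR, although *Eno3* and *Cox8b* were called lower without GF+PBS 1, and its median log2 fold change was -0.25. *Eno3* was high in the same livers as *Myh4*, at 48.2, 35.4 and 44.3 CPM in GF+PBS 3, 4 and 5 and between 22.6 and 32.3 CPM in the others. *Pygm* was at 33.3, 22.0 and 33.3 CPM in those 3 livers, and GF+MEV 2, with 26.0 CPM, lay above GF+PBS 4. In this list 4 genes had an r above 0.8 (*Eno3*, *Pygm*, *Cox8b* and *Pfkm*), while *Mb*, the myoglobin of slow fibres and heart, had an r of -0.43. Of the excitation-contraction list 4 of 16 genes were tested and none called, with a median log2 fold change of -0.033. *Srl*, *Hrc* and *Jph2*, proteins of the sarcoplasmic reticulum and its junctions, were between 2.25 and 6.55 CPM. Of the myogenic regulators only *Mef2c* was tested (1 of 8), at 1.22 to 3.24 CPM (edgeR adjusted p = 0.209).

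Heart muscle transcripts were present in every liver, and their highest livers were not those of *Myh4*. Of 11 heart genes 7 were tested (*Myh6*, *Actc1*, *Tnnt2*, *Mybpc3*, *Tnni3*, *Ryr2* and *Pln*), and edgeR called none. All 7 had an r below 0 with *Myh4* over the 10 livers, from -0.68 to -0.33. Among the 7 livers below the gap alone, r was below 0 for 3 of them and above 0 for 4, from -0.15 to 0.41. *Myh6*, the myosin heavy chain of the adult mouse heart, was at 97.9, 159, 133, 119 and 152 CPM in GF+MEV livers 1 to 5 and at 121, 112, 91.2, 71.9 and 99.6 CPM in GF+PBS livers 1 to 5. GF+MEV 2 was the highest liver and GF+PBS 4 the lowest, and the mean per kilobase of exon was 17.2 CPM, against 26.7 for *Myh4*. The log2 fold change of *Myh6* was 0.41 (standard error 0.18, edgeR adjusted p = 0.0937), that of *Mybpc3*, a myosin-binding protein of heart, 0.44 (standard error 0.15, edgeR adjusted p = 0.0508), and the median of the 7 was 0.36. Without GF+PBS 1, and likewise without GF+MEV 1, both *Myh6* and *Mybpc3* were called higher in GF+MEV, and DESeq2 called both higher with all livers. *Actc1*, the heart actin, was between 33.3 and 61.7 CPM and *Tnnt2*, the heart troponin T, between 19.9 and 48.5 CPM.

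Summed over the 7 heart genes, the level was 193, 324, 258, 236 and 280 CPM in the GF+MEV livers, and 232, 230.1, 176, 152 and 207 CPM in the GF+PBS livers. In GF+MEV 2, the highest liver of 5 of the 7 heart genes, *Ckm* was highest too. Over the 10 livers, r of log2 *Ckm* was -0.14 with the log2 heart sum and 0.65 with *Myh4*. For *Myh4*, *Acta1*, *Mylpf*, *Tnni2* and *Pgam2*, r with the heart sum was between -0.65 and -0.54. The part of heart transcripts in the *Ckm* level was not tested.

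The ratio of the summed skeletal muscle transcripts to the summed heart transcripts was highest in the same livers. This is no separate result, since the skeletal muscle sum includes *Myh4* and was already high in them. The ratio was 4.47 in GF+PBS 3, 3.71 in GF+PBS 4 and 3.68 in GF+PBS 5, and between 0.917 and 1.80 in the other 7 livers.

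**Figure D4:**
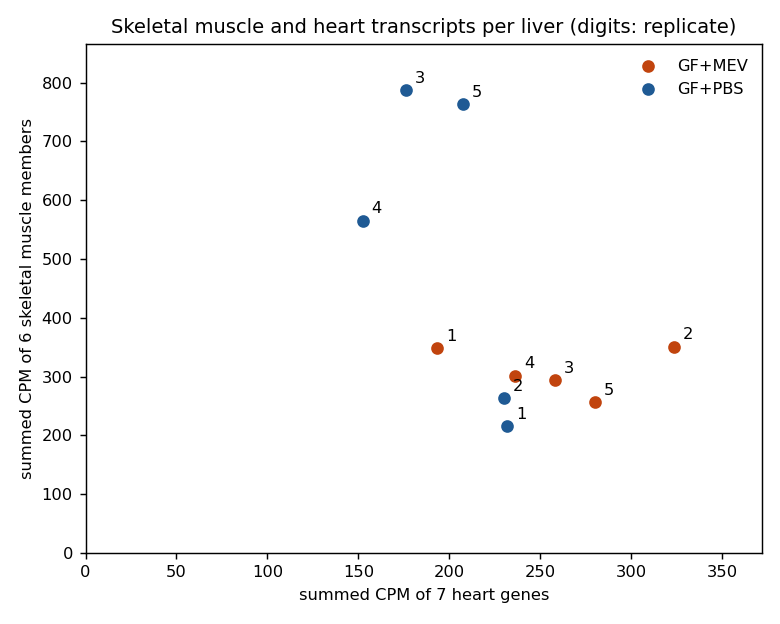
Summed CPM of the 6 skeletal muscle genes (vertical axis) against that of 7 heart genes (horizontal axis) in each liver, with replicate numbers beside the points. GF+PBS 3, 4 and 5 lie at 565 to 787 CPM of skeletal muscle transcripts, and at 152 to 207 CPM of heart transcripts, while GF+MEV 2 lies farthest right, at 324 CPM.

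Slow fibre genes, in part shared with heart, were not high in GF+PBS 3, 4 and 5 either. Of 9 genes 6 were tested, edgeR called none, the median log2 fold change was 0.30, and all 6 had an r below 0 with *Myh4* over the 10 livers. Among the 7 livers below the gap alone, r was below 0 for 3 and above 0 for 3, *Myl2*, *Myl3* and *Tnnc1*, from -0.35 to 0.32. *Myl2* was between 17.1 and 53.7 CPM, *Myl3* between 14.4 and 31.9 CPM and *Tnnc1* between 6.97 and 17.7 CPM, each highest in GF+MEV 2. The first 2 are the slow and ventricular light chains of myosin and the third the slow and cardiac calcium-binding troponin. *Myh7*, the slow myosin heavy chain, had a pattern of its own, with 11.7 CPM in GF+MEV 4, 14.9 CPM in GF+PBS 1 and 1.36 to 3.53 CPM in the other 8 livers. Neither of these livers was high for the fast myosin *Myh4*.

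**Figure D5:**
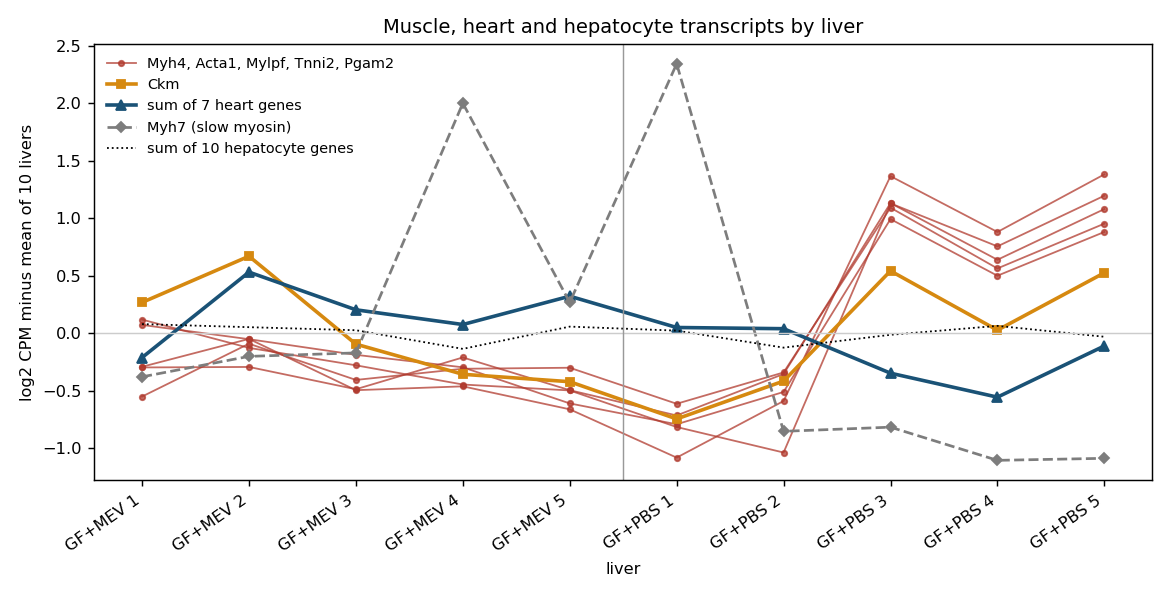
Log2 CPM of each gene or summed list in each liver, minus its mean over the 10 livers, with lines that only join the points of 1 gene or list. *Myh4*, *Acta1*, *Mylpf*, *Tnni2* and *Pgam2* are high together in GF+PBS 3, 4 and 5, *Ckm* has a further peak in GF+MEV 2 together with the heart sum, and *Myh7* peaks in GF+MEV 4 and GF+PBS 1.

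The broadly expressed counterparts of the set did not share its pattern. Of 12 such genes 10 were tested, their r with *Myh4* had a median of -0.18, and none exceeded 0.8. The cytoplasmic actin *Actb* was between 327 and 466 CPM, the non-muscle myosin light chain *Myl6* between 171 and 203 CPM, and *Atp2a2*, the calcium pump of heart and most other tissues, between 139.8 and 204 CPM. *Atp2a2* rose in GF+MEV by 0.38 on the log2 scale (standard error 0.040, edgeR adjusted p = 3.7e-04), without overlap between the groups. *Actg1* and *Myh10*, a cytoplasmic actin and a non-muscle myosin, were called higher as well, so that 3 of the 10 rose and 0 fell, beside 4.12% and 3.52% of all tested genes. *Myh10* lost its call with other scalings and when some livers were left out (edgeR adjusted p up to 0.128).

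Markers of other tissues that a liver sample could carry were examined as well. Of 14 genes of the exocrine pancreas none was analysed here, and of 6 epidermal genes only *Krt10* was tested, at 0.531 to 1.59 CPM. Of 8 mesothelial genes 3 were tested and none called, *Upk3b* at 0.167 to 4.63, *Msln* at 0 to 3.57 and *Gpm6a* at 0.427 to 2.63 CPM, and GF+MEV 3, not a liver with high *Myh4*, had the highest sum, 10.2 CPM. Of 10 smooth muscle genes 5 were tested and none called, with a sum of 78.9 to 99.1 CPM in GF+MEV and 58.1 to 94.4 CPM in GF+PBS. The sum was mostly *Mylk* (45.8 to 88.3 CPM), beside *Smtn* (4.76 to 7.58 CPM) and *Myl9* (1.68 to 4.14 CPM). *Acta2* was at 1.37 to 3.66 CPM and *Myh11* at 0.759 to 1.91 CPM. Their log2 fold changes were -0.28 and -0.39, against 0.26 for *Mylk*, 0.14 for *Myl9* and 0.045 for *Smtn*.

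Fat cell markers moved with *Myh4* in part. Of 10 genes 3 were tested, with a sum of 34.3 to 52.8 CPM in GF+MEV and 33.0 to 64.5 CPM in GF+PBS. *Fabp4*, a fatty acid binding protein of fat cells and endothelium, was at 32.6 and 31.6 CPM in GF+PBS 4 and 5 but at 13.5 CPM in GF+PBS 3, and at 8.13 to 15.7 CPM elsewhere. *Lipe*, the hormone-sensitive lipase, was at 27.1 and 26.8 CPM in GF+PBS 4 and 5 and at no more than 21.1 CPM in the other 8 livers. *Plin4*, a lipid droplet protein, was called higher in GF+MEV (log2 fold change 1.35, standard error 0.28, edgeR adjusted p = 0.0018). Over the 10 livers, r with *Myh4* was 0.67 for *Fabp4*, 0.58 for *Lipe* and -0.26 for *Plin4*, beside 0.65 for *Ckm* of the set. The defining genes *Adipoq* and *Plin1* were not analysed here, and the part of fat tissue in the muscle levels was not tested.

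Red blood cell and hepatocyte genes did not follow the muscle transcripts. All 5 erythroid genes were tested and none called, with *Hbb-bs* at 83.5 to 206, *Hba-a1* at 66.7 to 155 and *Alas2* at 72.7 to 102 CPM, and their sum was highest in GF+PBS 2, at 470.0 CPM. Of the 10 hepatocyte genes *Hnf4a* and *Cps1* were called higher in GF+MEV and none lower (edgeR adjusted p = 3.6e-04 and 0.0414). Of all tested genes, 4.12% were called higher and 3.52% lower. The call of *Cps1* was lost in some alternatives, up to an edgeR adjusted p of 0.131. The summed level of the 10 hepatocyte genes ranged from 114010 to 132369 CPM in GF+MEV and from 114872 to 130976 CPM in GF+PBS, next to *Trf* at 12334 to 14987 CPM and *Apoa1* at 8361 to 12245 CPM.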

How the data were processed

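RNA from snap-frozen whole liver of 10 GF mice was sequenced, 5 per group, 1 library per mouse. The authors prepared libraries with the NEBNext Ultra kit, aligned reads to GRCm38 with STAR 2.7.3a, counted them per gene with HTSeq, left out genes with fewer than 20 counts and deposited raw counts without normalization. Another 5 columns of the table matched none of the described samples and were not used. Positions and exon lengths came from GENCODE vM21. Counts were scaled by TMM and tested with edgeR 4.0.16 in R 4.3.3 (quasi-likelihood, treatment group only, at least 20 summed counts, Benjamini-Hochberg threshold 0.05). Standard errors are those of the difference in mean log2 CPM (prior count of 2), not of the edgeR fold change. Correlations used the same log2 CPM. The edgeR and DESeq2 1.42.0 fits were tested on simulated data. P-values take the livers as separate samples. The genes and the lists, written from general knowledge, were chosen with earlier results of these data known. Named genes were the 10 of the set, the 3 most abundant tested genes of each list with further muscle list genes, the 10 genes most like *Myh4* (some are not reported here), and called or departing list genes named after their values were seen. Alternatives were other normalizations and filters, DESeq2, a replicate block, prior counts, and each liver left out.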

Additional observations from a re-analysis of the deposited data

Results flagged for a closer look

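Of 96 sets of 5 values (6 members and 40 muscle list genes, and the member and heart sums, in each group), 7 had 1 liver far from the other 4, its gap to the nearest being over 0.71 of the whole range of the group. Chance alone gives about 1 such liver in 20 sets, or 4.8 of 96, if values are normally distributed and sets are separate. Genes of a liver vary together and CPM need not be normal, so 4.8 is only a rough guide. None of the 7 was a member of the skeletal muscle set. *Myh7* was at 11.7 CPM in GF+MEV 4, against 2.26 to 3.53 CPM in the other GF+MEV livers, and at 14.9 CPM in GF+PBS 1, while the 4 remaining livers of that group had 1.36 to 1.67 CPM. GF+MEV 2 stood apart for 4 genes. It had 53.7 CPM of *Myl2* against 19.0 to 28.9 CPM in the other GF+MEV livers, 29.2 CPM of *Ttn* against 17.9 to 20.95 CPM, 26.0 CPM of *Pygm* against 15.5 to 18.5 CPM, and 16.4 CPM of *Cox6a2*, a heart and muscle subunit of cytochrome c oxidase, against 7.50 to 8.80 CPM. *Jph1*, a junctophilin of skeletal muscle, was at 3.09 CPM in GF+MEV 3, against 1.52 to 1.65 CPM in the other GF+MEV livers.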

How the results depend on the processing

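The negative log2 fold changes of *Myh4*, *Acta1*, *Mylpf*, *Tnni2* and *Pgam2* kept their sign in all 18 alternatives, and *Acta1* and *Mylpf* stayed above the threshold in each, with adjusted p from 0.0577 to 0.504 and from 0.0532 to 0.486. Over the alternatives the adjusted p ranged from 0.0121 to 0.271 for *Tnni2* and from 0.0141 to 0.215 for *Pgam2*. The number of members called other than *Myh4* was 0, and 0 to 2 with a liver left out. The log2 fold change of *Ckm* turned positive with DESeq2 (0.0014), with the replicate block (0.014), with GF+PBS 1 and 3 summed and 4 and 5 summed (0.080), and with some livers left out (-0.19 to 0.14). Muscle list genes called numbered 2 with DESeq2 size factors (*Xirp1* and *Mybpc3*), 3 with DESeq2 (also *Myh6*), 0 with the replicate block and 0 to 6 with a liver left out (0 without GF+MEV 3, 3 without GF+PBS 2, 5 without GF+MEV 1, 6 without GF+PBS 1), against 1. Genes called in all fell from 928 to 561 with the GF+PBS pairs summed, in which only 8 libraries enter. The median r of 5 members with *Myh4* was 0.95 over 10 livers and 0.58 in the 7 livers below the widest gap, an alternative chosen after seeing the data. The other alternatives of that median gave 0.85 to 0.97. The cause of these changes was not tested. No clear pairing of the samples by replicate number was seen. Deviations of livers with the same number correlated at -0.19 to 0.17, and 2 of 5 GF+MEV livers correlated best with their own number. With so few livers these values cannot exclude a pairing. Levels of a few CPM rest on few reads, and 4 of the 10 genes, and most genes of the fast fibre kind, were not analysed here.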
